A study of Homo sapiens with 6 samples.

Results

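EBI3 and the cytokine chains and receptor subunits that it is known to work with were examined in HCT116 cells with and without LSD1. These were 9 of the 60240 genes of the count table, found by matching the Ensembl identifiers of the table to the symbols EBI3, IL27, IL12A, IL12B, IL23A, IL6ST, IL27RA, IL12RB1 and IL12RB2. EBI3 was chosen by its difference between LSD1 KO and WT libraries, so its values in this comparison are a description without a test. The other 8 genes were chosen as its partners.

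HCT116 is a human colorectal carcinoma cell line, and polyA RNA was sequenced from 3 libraries of wild-type (WT) cells and 3 libraries of LSD1 knockout (LSD1 KO) cells. The knockout was made by CRISPR/Cas9 cutting in exon 1 of KDM1A, the gene of the histone H3K4 demethylase LSD1, with a transfected plasmid and puromycin selection, and single clones were grown up. The sources used here name no treatment of the WT cells, and they do not give the number of clones behind the 3 LSD1 KO libraries. The methods speak of biological replicates for the experiments in general, and do not say which cultures or clones these libraries came from. The tests measure the spread between these libraries.

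Interleukins of the IL-12 family are pairs of a helical chain and a chain built like a soluble cytokine receptor. EBI3 is a receptor-like chain, first found as a gene induced in B cells by Epstein-Barr virus. It joins IL27 (the p28 chain) to form IL-27 and IL12A (the p35 chain) to form IL-35, and a pairing with IL23A (the p19 chain) has been described as IL-39. IL12B (the p40 chain) takes the same receptor-like part in IL-12, with IL12A, and in IL-23, with IL23A. IL-27 is read by IL27RA with IL6ST (gp130), IL-12 by IL12RB1 with IL12RB2, and these receptors signal through JAK kinases and STAT factors. The chains are known mainly from antigen-presenting cells, whereas gp130 is expressed by most cell types.

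The libraries held 25379279 to 29186963 counts each. The floor was set at 3 counts, or between 0.0994 and 0.114 counts per 1000000 (CPM, on TMM-scaled library sizes) depending on the library, and covers counting error only. KDM1A had 231, 224 and 214 CPM in WT replicates 1, 2 and 3 and 29.9, 27.6 and 27.8 CPM in the LSD1 KO replicates, as the labels say. Same-numbered libraries of the WT and LSD1 KO groups deviated together from their group means. On the first principal component, replicate 1 lay at -51.1 (WT) and -38.3 (LSD1 KO). Replicate 2 lay at the other end, at 50.5 (WT) and 58 (LSD1 KO), and replicate 3 between them, at -6.91 (WT) and -12.2 (LSD1 KO). Values are therefore given without and, where it matters, with the replicate number as a block. Of 14 marker genes of immune cells, 5 had 0 counts in every library (CD2, CD3D, CD3E, CD1C and CLEC9A), and 9 had at most 3 counts in every library. The 14 markers summed to between 1.4 and 3.38 CPM in WT and between 3.86 and 9.39 CPM in LSD1 KO libraries. Nearly all of this was ITGAX, a β2 integrin partner chain known from myeloid cells, and the other 13 markers summed to between 0.113 and 0.53 CPM in WT and between 0.179 and 0.663 CPM in LSD1 KO. ITGAX itself went from 2.28 ± 0.875 CPM (SD, n = 3 libraries) in WT to 6.19 ± 2.57 CPM (SD, n = 3) in LSD1 KO. Of 7 epithelial markers, KRT8, KRT18, KRT19, EPCAM, CDH1 and CDX2 were read in every library, and VIL1 had between 2 and 8 counts. The 7 markers summed to between 2044 and 3820 CPM in WT and between 2421 and 3160 CPM in LSD1 KO. Within this list EPCAM, an epithelial adhesion protein, went from 204 ± 39.2 CPM to 104 ± 28.3 CPM, and the keratin KRT18 from 508 ± 142 to 359 ± 13.8 CPM, both without overlap of the groups (SD, n = 3 each). The keratin KRT19 went the other way, from 831 ± 306 to 1110 ± 305 CPM with overlapping groups. With the replicate block, edgeR called ITGAX higher (q value 0.0251) and EPCAM lower (q value 0.0788) in LSD1 KO, and neither without it. DESeq2's Wald test, fitted without the block, also called EPCAM (adjusted p = 0.0508). ITGAX was higher and EPCAM lower in the libraries where EBI3 was higher, and their part in the EBI3 difference was not tested.

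EBI3 (ENSG00000105246) lies on chromosome 19 from 4229523 to 4237528 (GRCh38, RefSeq). The 250 bases before its annotated start, chr19:4229273-4229522 on the plus strand (RefSeq, GRCh38.p14), are shown because EBI3 had the largest difference of the 9 genes. Capitals mark the matches of 2 motifs, found by letters alone.

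EBI3: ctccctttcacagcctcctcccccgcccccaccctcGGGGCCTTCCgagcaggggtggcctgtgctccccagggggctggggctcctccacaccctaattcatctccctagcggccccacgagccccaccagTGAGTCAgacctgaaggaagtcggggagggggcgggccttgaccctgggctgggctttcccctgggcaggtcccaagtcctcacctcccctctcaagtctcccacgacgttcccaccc

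The first match, from -214 to -205 counted from the start, is to the NF-kappaB consensus. The second, from -118 to -112, is to the AP-1 site TGANTCA. In all, 4 motifs were searched on both strands, and the matches found do not overlap. The STAT site TTCNNNGAA and the core of the interferon-stimulated response element did not occur in these 250 bases. Over 35116 promoter windows of the same length, 9.96% held the NF-kappaB consensus, 6.57% the AP-1 site, 6.57% the STAT site and 3.02% the interferon-stimulated response element core. The EBI3 window held 9 CpG dinucleotides, and 45.9% of the windows held fewer. Promoter windows were found for 8 of the 9 genes. IL6ST had 31 CpG dinucleotides (89.1% of windows held fewer), IL27RA 19 (65.4%), IL12A 18 (63.2%), IL12RB1 12 (51.5%), IL23A 3 (22.9%) and IL12B 1 (6.1%). IL12RB2 has 2 annotated starts, with 9 and 34 CpG dinucleotides. The NF-kappaB consensus also occurred in the windows of IL12A, IL23A, IL6ST and IL27RA, and the AP-1 site in that of IL23A. A match of letters does not show that a factor binds there.

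EBI3 was low in WT cells and about 6-fold higher in LSD1 KO cells, and IL27 was not read at all. The groups overlapped for the 4 partners of EBI3 with enough counts to be tested. Without the replicate block, edgeR called none of these partners at a q value under 0.1. For EBI3 the edgeR q value was 0.174 without the block and 0.00506 with it. As EBI3 was chosen on this contrast, neither value is a test of it. EBI3 had 19, 32 and 30 counts in WT replicates 1, 2 and 3 and 149, 215 and 137 counts in the LSD1 KO replicates, which is 0.718, 1.21 and 0.994 CPM against 5.33, 7.92 and 5.19 CPM. Each LSD1 KO library was above each WT library, and replicate 2 was the highest library of both groups. The mean went from 0.974 ± 0.247 CPM (SD, n = 3) to 6.15 ± 1.54 CPM (SD, n = 3), a ratio of 6.31. In same-numbered pairs 1, 2 and 3 the log2 difference was 2.89, 2.71 and 2.38. The log2 fold change fitted by edgeR was 2.65, with a 95% interval from 1.87 to 3.43 without the replicate block and from 2.11 to 3.19 with it. No 31-base sequence of the EBI3 transcripts occurs in transcripts of another gene, and no annotated exon of another gene overlaps its exons. In bulk libraries, more cells that express EBI3 and more EBI3 RNA per cell cannot be told apart.

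**Figure D1:**
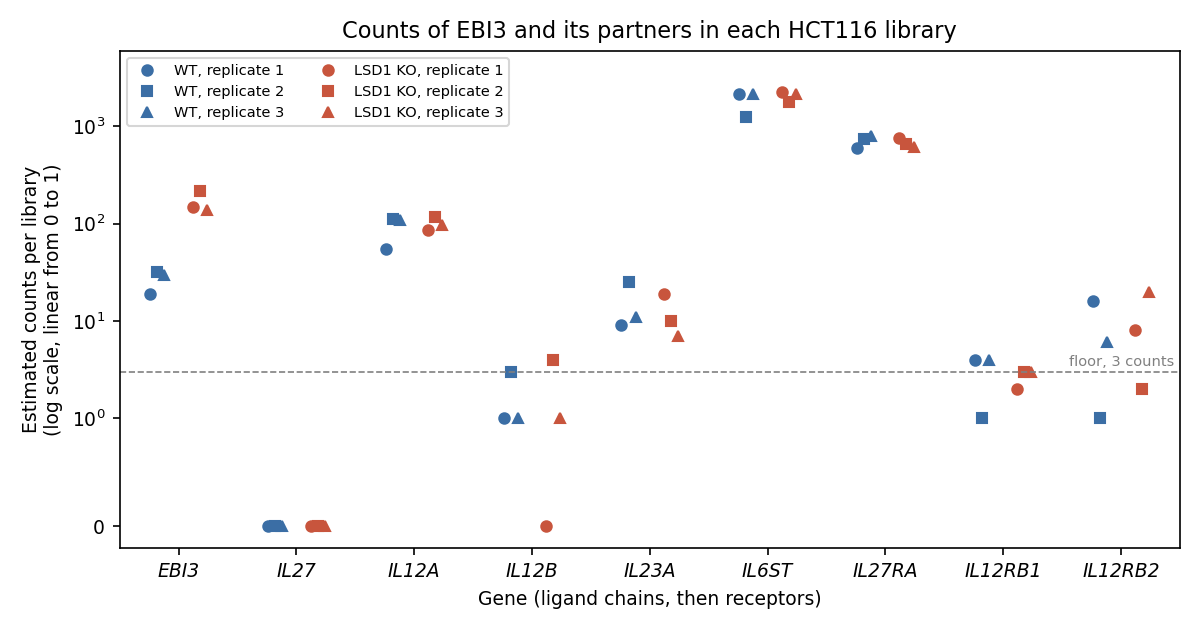
Estimated counts of the 9 genes (x axis) in each library (y axis, log scale, linear from 0 to 1), with WT libraries in blue, LSD1 KO libraries in red and replicate numbers as marker shapes; the dashed line is the floor of 3 counts. EBI3 is the only one of the 9 genes whose WT and LSD1 KO points do not overlap, and all 6 IL27 points lie at 0.

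IL27, the p28 chain of IL-27 (chromosome 16 from 28499362 to 28506834, GRCh38), had 0 counts in all 6 libraries. This allows a level of up to 0.0994 CPM in WT replicate 3, the deepest library, and of up to 0.114 CPM in WT replicate 2 and LSD1 KO replicate 3. For IL12B, the p40 chain of IL-12 and IL-23 (chromosome 5 from 159314780 to 159330487), the WT replicates held 1, 3 and 1 counts and the LSD1 KO replicates 0, 4 and 1. It was at the floor in WT, and 1 library, LSD1 KO replicate 2, was above it by 1 count. For IL12RB1, the subunit shared by the IL-12 and IL-23 receptors (chromosome 19 from 18058995 to 18098927), the WT replicates held 4, 1 and 4 counts and the LSD1 KO replicates 2, 3 and 3, at the floor. IL27 was thus the 1 gene of the 9 at or under 3 counts in every library. At this depth a small difference of IL12B or IL12RB1 between the groups was not detectable, and both genes had at most 4 counts in every library.

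IL12RB2, the signalling subunit of the IL-12 receptor (chromosome 1 from 67307364 to 67398724), was counted 16, 1 and 6 times in the WT replicates and 8, 2 and 20 times in the LSD1 KO replicates. Replicate 2 was the lowest library of both groups, and the groups overlapped. IL27, IL12B, IL12RB1 and IL12RB2 had too few counts for the edgeR fit, which left 5 of the 9 genes tested.

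IL12A, the p35 chain of IL-12 and IL-35 (ENSG00000168811, chromosome 3 from 159988835 to 159996019), was read in every library. It had 2.08, 4.2 and 3.64 CPM in WT and 3.08, 4.27 and 3.71 CPM in LSD1 KO libraries. WT replicate 1 was the lowest library, and the other 2 WT libraries lay within the range of the LSD1 KO libraries. Its log2 fold change was 0.16, with a 95% interval from -0.61 to 0.92 (q value 0.999 from edgeR), and it was -0.09 without WT replicate 1. With the replicate block the interval ran from -0.32 to 0.70. IL12A-AS1, which overlaps 78 exon bases of IL12A on the opposite strand, had between 0 and 2 counts per library.

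IL23A, the p19 chain of IL-23 (ENSG00000110944, chromosome 12 from 56338884 to 56340410), was just deep enough to be tested. It was counted 9, 25 and 11 times in the WT replicates and 19, 10 and 7 times in the LSD1 KO replicates, so that the groups overlapped and the pairs went in both directions. The log2 fold change was -0.32, with a 95% interval from -1.70 to 1.06 (q value 0.999 from edgeR), and it was 0.30 without WT replicate 2. A halving or a doubling of IL23A lies within this interval.

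The receptor for IL-27 was read as transcripts of both subunits in both groups. IL27RA, its ligand-binding subunit (ENSG00000104998, chromosome 19 from 14031762 to 14053218), had 22.6, 27.9 and 26.3 CPM in WT and 27, 24.2 and 23.1 CPM in LSD1 KO libraries. The groups overlapped, with means of 25.6 ± 2.7 CPM and 24.8 ± 2.02 CPM (SD, n = 3 each). Its log2 fold change was -0.048, the smallest of the 5 genes tested in size, with a 95% interval from -0.42 to 0.33 (q value 0.999 from edgeR). The sign of IL27RA was not stable, since it was 0.011 without WT replicate 2.

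IL6ST, which encodes gp130, the signal-transducing subunit shared by the IL-6 family (ENSG00000134352, chromosome 5 from 55935095 to 55994963), had 81.7, 47.1 and 70.6 CPM in WT and 81.3, 66.1 and 82.4 CPM in LSD1 KO libraries. Replicate 2 was again the lowest library of both groups. The log2 fold change was 0.20 (95% interval from -0.30 to 0.71, q value 0.999 from edgeR) without the block and 0.23 (95% interval from -0.021 to 0.49, q value 0.412) with it. Without WT replicate 2 it was 0.00076. The pseudogene IL6STP1, which holds 2.418% of the 31-base sequences of IL6ST transcripts, had 0 counts in every library. ENSG00000262211, an antisense gene that overlaps 797 exon bases of IL6ST, had 1 count in 1 library and 0 in the others.

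At a q value under 0.1, edgeR called 0 of these 5 genes without the block, beside 0.00566% of all 17672 tested (1 gene, KDM1A). With the block it called 1, EBI3, beside 1.6% of all tested, and DESeq2's Wald test also called EBI3 alone of the 9, beside 0.376% of the 25298 genes to which it gave an adjusted p. EBI3 was chosen on this contrast, so this count is no support for it. Of the 4 tested partners, 0 were called by edgeR without or with the block or by DESeq2, and 0 had an unadjusted p under 0.05 in either edgeR fit. The median log2 fold change of the 4 partners was 0.054, and that of all genes tested was 0.00082. EBI3 was the 1 gene of these 5 whose CPM did not overlap between the groups, as was the case for 7.74% of all genes tested.

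Levels of different genes were compared as CPM per kilobase of the longest annotated transcript. In WT cells IL27RA (8.68 ± 0.915) and IL6ST (7.36 ± 1.96) were highest, and the difference between them was within the spread of the libraries. IL12A (1.73 ± 0.577), EBI3 (0.841 ± 0.214) and IL23A (0.531 ± 0.331) followed (CPM per kilobase, mean ± SD, n = 3), and the SD ranges of EBI3 and IL23A overlapped. In LSD1 KO cells EBI3 reached 5.31 ± 1.33 CPM per kilobase and stood between the receptor subunits IL6ST (8.49 ± 1.01) and IL27RA (8.4 ± 0.686) and the chains IL12A (1.93 ± 0.314) and IL23A (0.422 ± 0.208). With merged exon length in place of the longest transcript, IL6ST was at 5.51 ± 1.47 in WT, below the SD range of IL27RA (8.68 ± 0.915). In LSD1 KO replicate 2 the ratio of EBI3 to IL6ST was 0.934 with the longest transcript and 1.15 with merged exon length, so the order of these 2 genes turned there. Measured against 17553 tested genes with a known length, the level of EBI3 per length was above 24.2% of genes in WT and above 52.9% in LSD1 KO. IL27RA was above 64.1% and 63.2%, and IL12A above 34.2% and 35.2%.

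The ratio of EBI3 to IL12A, the 2 chains of IL-35, was taken within each library, where library scaling cancels. Per length, it was 0.569, 0.475 and 0.45 in WT replicates 1, 2 and 3 and 2.86, 3.06 and 2.3 in the LSD1 KO replicates. By this measure IL12A transcripts outnumbered EBI3 transcripts in each WT library and were outnumbered in each LSD1 KO library. The ratio of EBI3 to IL27RA went from 0.0959 ± 0.0149 to 0.636 ± 0.174 (SD, n = 3 each). The rise in both ratios follows from the EBI3 counts that chose the gene. Transcript levels do not give the amount of secreted protein or of any chain pair.

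**Figure D2:**
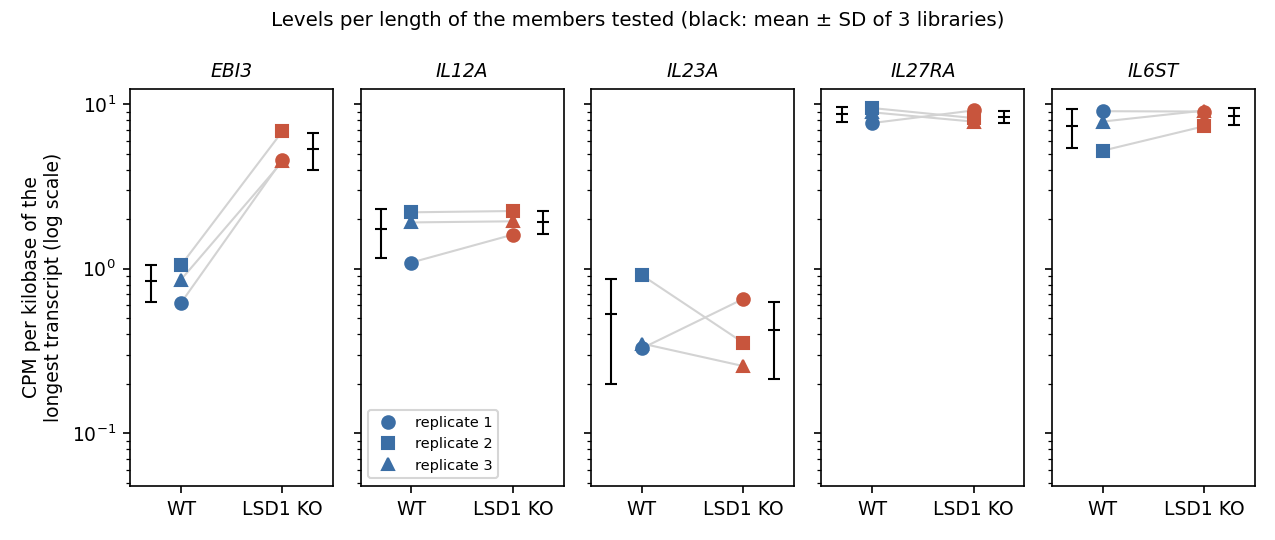
CPM per kilobase of the longest transcript (y axis, log scale) of the 5 genes tested in WT (blue) and LSD1 KO (red) libraries, with grey lines joining libraries of the same replicate number and black bars for the mean ± SD of 3 libraries. EBI3 goes from 0.841 to 5.31 and lies above IL12A in LSD1 KO, while the IL12A, IL23A, IL27RA and IL6ST points overlap between the groups.

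The other genes of the pathway were taken from 3 lists, of the kinases, STAT factors and inhibitors below these receptors (13 genes), of the other gp130 family cytokines and receptors (15 genes) and of the NF-kappaB subunits (5 genes), NF-kappaB being a known inducer of EBI3. Of these 33 genes 28 were tested. In edgeR 0 were called without the block, with 2 at an unadjusted p under 0.05 (3.12% of all genes tested), and 0 with the block, with 7 at an unadjusted p under 0.05 (13.4% of all genes tested). DESeq2's Wald test called 0. The median log2 fold change was 0.077, and 17 of the 28 were positive, beside 50.1% of all genes tested.

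Of the 28, 6 had groups that did not overlap, 4 higher and 2 lower in LSD1 KO, beside 7.74% of all genes tested. LIF, the ligand of LIFR with gp130, had 72.7, 85.2 and 87.1 CPM in WT and 109, 98.6 and 107 CPM in LSD1 KO libraries. For LIF, edgeR gave a log2 fold change of 0.36 with a standard error of 0.15 (q value 0.999), and of 0.37 with a standard error of 0.10 (q value 0.178) with the block. CLCF1, a cytokine of the same family, had 6.16, 8.1 and 7.36 CPM in WT and 5.01, 5.31 and 4.28 CPM in LSD1 KO libraries (log2 fold change -0.57, standard error 0.24, q value 0.999 from edgeR). STAT4, the STAT factor best known from IL-12 signalling, had 2.68, 2.99 and 3.45 CPM in WT and 3.47, 8.22 and 4.43 CPM in LSD1 KO libraries, where replicate 2 stood above the rest (log2 fold change 0.82, standard error 0.36, q value 0.999 from edgeR). The kinases JAK1 and TYK2 were higher by 0.22 and 0.25 on the log2 scale, and JAK2 had a log2 fold change of -0.20.

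None of these passed the threshold without or with the block. With the block the log2 fold change of CLCF1 was -0.56 (q value 0.233 from edgeR) and that of STAT4 0.74 (q value 0.285). IL31RA, a receptor of the gp130 family, had the highest log2 fold change of the 28, 1.25 (q value 0.999 from edgeR), from 0.55 to 1.32 CPM with overlapping groups. STAT3, the STAT factor best known from gp130 signalling, went from 76.1 ± 16 to 91.6 ± 20.5 CPM (SD, n = 3 each). SOCS3, an inhibitor induced by STAT3, went from 32.2 ± 7.32 to 31.1 ± 11.5 CPM. With the block their log2 fold changes were 0.26 (STAT3, q value 0.275 from edgeR) and -0.085 (SOCS3, q value 0.837). IL23R, the second IL-23 receptor subunit, had at most 2 counts per library, IL6 at most 2, and IL31 had 0 counts in every library. Of the NF-kappaB subunits, NFKB1, NFKB2, REL, RELA and RELB had log2 fold changes of -0.25, 0.11, 0.17, 0.20 and -0.14. The lowest edgeR q value among them with the block was 0.389. REL had 3.41 (WT) and 6.34 CPM (LSD1 KO) in replicate 2, and between 20.7 and 28.2 CPM in the other libraries. These are transcript levels of the subunits, and NF-kappaB activity was not measured.

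**Figure D3:**
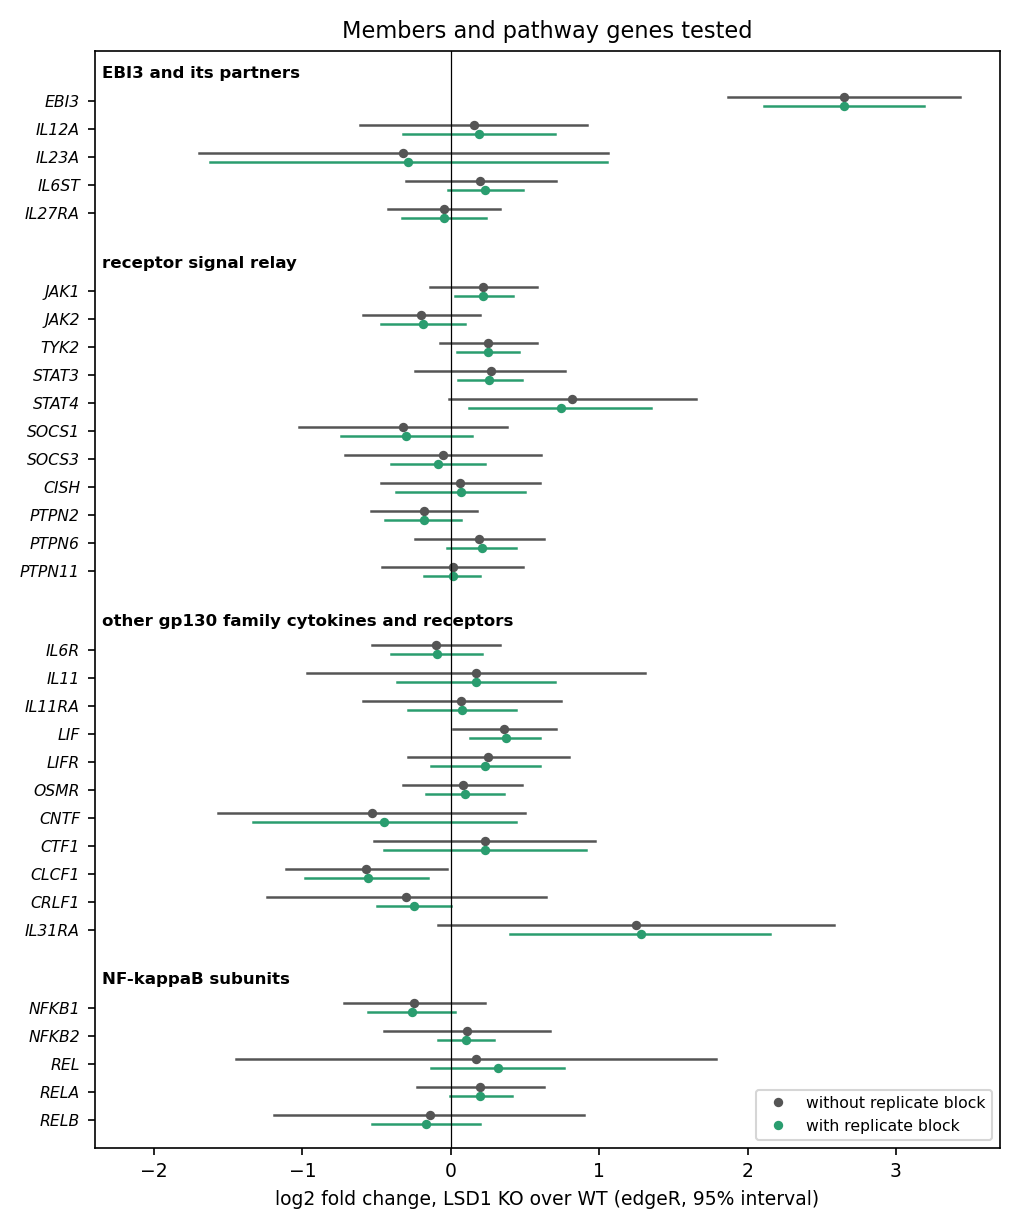
Log2 fold change of LSD1 KO over WT (x axis) with 95% intervals from edgeR for EBI3 and its tested partners and for the tested genes of the 3 pathway lists that are reported by name (y axis), without the replicate block in grey and with it in green. EBI3, which was chosen on this contrast, has the highest point, with an interval from 1.87 to 3.43 without the block. The interval of IL31RA without the block, from -0.085 to 2.58, overlaps that of EBI3. The points of the 4 tested partners of EBI3 lie between -0.32 and 0.23.

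The genes around EBI3 were taken by position, as those with a lower RefSeq coordinate within 100 kb of the EBI3 start. For a gene on the minus strand this coordinate is the end of its transcript. Of 8 such genes 7 were tested, 6 of them with a positive log2 fold change (50.1% of all genes tested), and the median was 0.45. In edgeR 0 were called without the block, with 2 at an unadjusted p under 0.05 (3.12% of all genes tested). With the block 1 was called, ANKRD24 (1.6% of all genes tested), with 3 at an unadjusted p under 0.05 (13.4%). The groups did not overlap for 2 of the 7 (7.74% of all genes tested). DESeq2's Wald test called 0. ANKRD24, an ankyrin repeat protein gene, ends 4.71 kb before EBI3 begins. It had 4.08, 7.19 and 5.07 CPM in WT and 7.37, 12.5 and 10.4 CPM in LSD1 KO libraries, so that each LSD1 KO library was above each WT library. The log2 fold change of ANKRD24 without the block was 0.89 (standard error 0.30, edgeR q value 0.999), and with it 0.90 (standard error 0.16, q value 0.0522). FSD1, 67.1 kb beyond the end of EBI3, had 28.2, 39.6 and 36.2 CPM in WT and 44.7, 55 and 42.3 CPM in LSD1 KO libraries, again without overlap (log2 fold change 0.45, q value 0.999 from edgeR without the block and 0.133 with it). YJU2, a splicing factor gene and the nearest gene on the other side at 9.55 kb, went from 21.6 ± 7.78 to 19.7 ± 4.25 CPM (SD, n = 3 each). The log2 fold changes of CREB3L3, SIRT6, SHD and STAP2 were 1.29, 0.20, 0.69 and 0.45, with q values of 0.999 without the block. The difference between EBI3 and its neighbours was not tested.

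**Figure D4:**
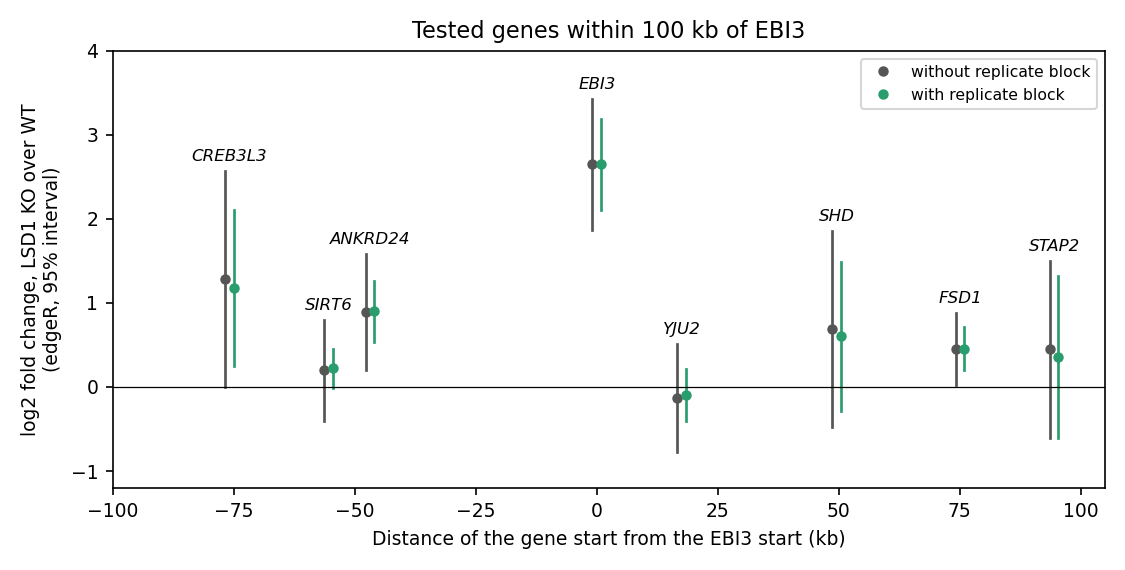
Log2 fold change of LSD1 KO over WT (y axis) for EBI3 and the 7 tested genes within 100 kb, with 95% intervals from edgeR. Intervals are without (grey) and with (green) the replicate block. The x axis gives the distance of their lower RefSeq coordinate from the EBI3 start in kb. EBI3, which was chosen on this contrast, has the highest point, 2.65, ANKRD24 lies at 0.89, and YJU2 lies at -0.13.

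The genes most like EBI3 were ranked by Pearson's r of log2(CPM + 1) over the 6 libraries, among 14799 tested genes with a mean of at least 1 CPM. The 5 highest were ALDH3B1 (r = 0.9971), SNTB1 (0.9917), ACYP2 (0.9869), MLXIPL (0.9844) and MAT2A (0.9806). ALDH3B1, an aldehyde dehydrogenase, had 18.5, 22.6 and 20.2 CPM in WT and 35.3, 42.5 and 35 CPM in LSD1 KO libraries, with replicate 2 highest in both groups as for EBI3. MLXIPL, a glucose-responsive transcription factor, went from 41.5 ± 3.77 to 69.5 ± 2.26 CPM, and MAT2A, which makes S-adenosylmethionine, from 343 ± 5.26 to 473 ± 28.6 CPM (SD, n = 3 each). These r values describe 6 libraries that fall into 2 genotypes, so a gene that differs between the groups scores high. Over the same libraries r with EBI3 was 0.428 for IL12A, 0.25 for IL6ST and -0.124 for IL27RA.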

How the data were processed

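RNA-seq libraries of HCT116 cells, 3 WT and 3 LSD1 KO, were used. The authors trimmed the reads with Trimmomatic 0.39, quantified them with Salmon 1.4.0 (version per the submitters' processing notes) against a GENCODE transcriptome on GRCh38, and deposited expected counts per gene in whole numbers, unscaled. Assignment of transcripts to genes is not given in the sources used here, and strand use is not stated, so reads of a gene and its antisense partner cannot be told apart.

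Symbols were matched by Ensembl identifier. Counts were compared with edgeR 4.0.16 (R 4.3.3, TMM, filterByExpr, quasi-likelihood test, Benjamini-Hochberg adjustment over 17672 genes, called at a q value under 0.1). The standard error was the fold change divided by the root of the F statistic. CPM used the TMM-scaled library sizes. DESeq2 1.42.0, other size factors, no filter, a replicate block, and leaving out libraries were alternatives.

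Replicate numbers come from the labels. The deviations of same-numbered WT and LSD1 KO libraries correlated with Pearson's r of 0.553, 0.553 and 0.404 across genes, so the numbers were taken to pair the libraries. The steps were tested on simulated data, in which differences were placed only in genes with a mean of at least 1 CPM. IL23A lies below this level.

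Positions and promoters came from RefSeq (GRCh38.p14). Transcript lengths, overlapping exons and shared 31-base sequences came from GENCODE v44lift37, a later annotation than that behind the counts, and no coordinates of it are given.

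The genes and lists were chosen with earlier results of these data known. The genes named are EBI3 and its partners, KDM1A, list genes called in an edgeR fit or without overlap at a mean of at least 1 CPM, tested genes within 100 kb of the EBI3 start and the 5 most like EBI3. Other list genes were named after their values were seen, among them STAT3, SOCS3, IL23R, IL6, IL31, the NF-kappaB subunits and the markers. A list gene is counted but not reported here by name.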

Additional observations from a re-analysis of the deposited data

How the results depend on the processing

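The log2 fold change of EBI3 stayed between 2.41 and 2.83 over 14 alternatives, with q values from 2.13e-08 to 1, under 0.1 in 7 of them. EBI3 was chosen on this contrast and each alternative drew on the same libraries, so these q values are no support for it. Leaving out 1 library at a time without the replicate block gave log2 fold changes of EBI3 from 2.41 to 2.83. The number of genes called was 1 and rose to 114 when every gene with a count was kept, to 95 with DESeq2's Wald test and to 282 with the replicate block. It ran from 1 to 26 when 1 library was left out, with 26 without LSD1 KO replicate 2. With the replicate block and 1 replicate number left out of both groups, a setting added after the data were seen, it was 428, 1055 and 198 without numbers 1, 2 and 3.

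Of the partners, 0 were called in any alternative. The log2 fold change of IL12A ran from -0.09 (without WT replicate 1) to 0.36, and that of IL6ST from 0.00076 (without WT replicate 2) to 0.38. That of IL23A was 0.30 without WT replicate 2 and 0.31 with the replicate block without number 2, and otherwise below 0, down to -0.95 (-0.78 to 0.30 with 1 library left out). That of IL27RA was 0.011 without WT replicate 2, and 0.015 and 0.029 with the replicate block without numbers 2 and 3, and otherwise below 0, down to -0.20 (-0.13 to 0.011 with 1 library left out). The cause was not tested.

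Of the pathway genes, 1 was called in 1 alternative, LIF with the replicate block without number 2 (log2 fold change 0.43, q value 0.0243 from edgeR). Of the genes near EBI3, 1 was called with the replicate block and also without number 1, and 2 without number 2, ANKRD24 and FSD1. With a floor of 10 counts in place of 3, 3 genes were at the floor in every library, IL27, IL12B and IL12RB1. With merged exon length the ratio of EBI3 to IL12A in LSD1 KO was 2.59 in place of 2.74, and that of EBI3 to IL6ST 0.795 in place of 0.645. Depth limits IL12B, IL12RB1, IL12RB2 and IL23A.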
